A study of Mus musculus with 2 samples.

Results

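The genes described here are those of matrix proteases and their inhibitors: the matrix metalloproteinases (Mmp), the membrane proteases of the ADAM family, the secreted ADAMTS proteases with their ADAMTS-like relatives (Adamtsl), the tissue inhibitors of metalloproteinases (Timp) and the membrane inhibitor Reck. They were chosen by gene symbol alone from the deposited count table, with no use of the counts beyond keeping the gene model with most reads where a symbol had several. This gave 85 of 30744 symbols, of which 23 were Mmp, 33 Adam, 19 Adamts, 5 Adamtsl, 4 Timp and 1 Reck.

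The study profiled total RNA from 2 mouse kidneys, with 1 library each. The normal kidney was labelled wild type, without doxycycline. The label of the kidney tumour gave the genotype Tet-OSKM/mPer2-luc, with doxycycline, and both carried the strain label C57BL/6 x DBA/2 F1. In the tumour animal the reprogramming factors Oct4, Sox2, Klf4 and c-Myc stood under a promoter that doxycycline switches on through the M2rtTA activator made from the Rosa26 locus. The mPer2-luc allele reports a clock gene through luciferase. Per the labels' protocols the transgenes were carried by embryonic stem cells injected into host blastocysts, so that a chimeric animal holds host cells as well as cells of the injected line. That protocol stands with both libraries. The age and sex of the animals, and the dose and length of doxycycline treatment, are not given in the sources used here.

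Each group had 1 library and no difference below has a replicate check. Every value compares these 2 libraries and not the conditions, and no p-value was computed. The normal library held 29258428 exon reads and the tumour library 20836819. Levels are given as CPM, counts scaled to a common library size, after TMM scaling by the trimmed mean of gene ratios, and folds are ratios of these. Intervals are exact 95% intervals that cover counting error only. Measured genes are those with a total of 20 reads or more, and "higher" or "lower" below, always of the tumour against the normal library, stands for a fold of 2 or more whose interval excluded 1. Markers of proximal tubule (5 of 5 lower) had a summed level of 20923 CPM in normal kidney against 833 CPM in the tumour. For markers of pluripotent cells (7 of 7 higher) the sums were 26.5 and 963 CPM. Dppa4, Utf1, Zfp42, Dppa5a and Tdgf1 had 0 normal reads and Nanog had 1. They passed the minimum through the tumour library, which favours a call. Among all measured genes 31.2% were higher and 28% lower.

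Proteases of the extracellular matrix are zinc enzymes made as inactive precursors. Mmp enzymes cut collagens, gelatin, laminins and elastin. ADAM proteins sit in the cell membrane and shed the outer parts of other membrane proteins, and ADAMTS enzymes are secreted and cut proteoglycans, procollagens and clotting proteins. The 4 TIMP proteins bind the active site of these enzymes, each with its own preferences, and RECK restrains several Mmp enzymes at the cell surface. In the adult kidney this balance sets the turnover of tubular and glomerular basement membranes, and TIMP3 is unusual in that it is itself held in the matrix.

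The largest run of neighbours among these genes was a block of 10 Mmp genes on chromosome 9, between 7272514 and 7699416 (mm10). The promoter windows of 6 of them are shown first, because Mmp12, Mmp3, Mmp10, Mmp8 and Mmp7 were higher in the tumour library while Mmp13, their neighbour, was not. Each window covers the 120 bases before the start site given by RefSeq (GRCm38.p6, plus strand), with capitals on 2 motifs. The first is TGANTCA with any middle base, called the AP-1 letters here. It includes TGACTCA and TGAGTCA, the usual sites of AP-1 factors, and reads the same on both strands. The second is the TATA box letters TATAAA, searched on both strands. No AP-1 match overlapped a TATA match in these windows.
Mmp13, chr9:7272394-7272513: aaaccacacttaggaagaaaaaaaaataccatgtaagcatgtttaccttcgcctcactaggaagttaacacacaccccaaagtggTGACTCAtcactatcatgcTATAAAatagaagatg
Mmp12, chr9:7347254-7347373: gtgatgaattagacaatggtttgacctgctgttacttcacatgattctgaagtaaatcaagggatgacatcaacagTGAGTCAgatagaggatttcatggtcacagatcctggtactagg
Mmp3, chr9:7445702-7445821: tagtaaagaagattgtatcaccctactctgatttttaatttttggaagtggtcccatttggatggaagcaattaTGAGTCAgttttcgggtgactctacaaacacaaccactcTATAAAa
Mmp10, chr9:7502222-7502341: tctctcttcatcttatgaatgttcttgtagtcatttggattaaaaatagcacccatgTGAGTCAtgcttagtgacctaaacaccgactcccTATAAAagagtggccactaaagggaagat
Mmp8, chr9:7558309-7558428: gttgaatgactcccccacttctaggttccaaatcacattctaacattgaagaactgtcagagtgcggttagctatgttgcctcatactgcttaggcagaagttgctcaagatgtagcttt
Mmp7, chr9:7691970-7692089: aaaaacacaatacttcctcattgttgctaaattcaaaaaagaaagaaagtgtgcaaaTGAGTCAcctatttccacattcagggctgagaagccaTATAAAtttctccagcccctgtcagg

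Of the 6 windows 5 held the AP-1 letters, all but Mmp8, and 4 held the TATA letters, all but Mmp12 and Mmp8. Over the 250 bases before the start site, 8 of the 10 genes of the block held the AP-1 letters and 7 held the TATA letters, against 6.36% and 11.8% of 16881 promoters of the same length. Promoters were found for 54 of the 85 genes. Outside the block, 4 of 17 Adam promoters held the AP-1 letters, and 0 of 8 other Mmp, 0 of 14 Adamts and Adamtsl and 0 of 5 Timp and Reck promoters did. The matches of Mmp20, in the block, and of Adam20 and Adam25 read TGAATCA, which is not a usual AP-1 site. The AP-1 letters stood before 5 of 20 genes that were higher, 0 of 5 that were lower and 1 of 13 that were neither. Over all measured genes with a promoter the share was 4.36%. The letters also stood before Mmp1a, Mmp1b, Mmp20, Adam20, Adam25 and Adam29, which had no reads or too few to be measured. Of the 5 higher genes all but Adam19 lay in the block. In the block, Mmp13 carried the AP-1 letters without being higher, and Mmp8 was higher without them. A match in letters describes the sequence and does not show that a factor binds there.

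Inhibitors had the largest summed level of the families in the normal library, through 1 gene, with 2692 CPM against 425 CPM for Adam genes, but not in the tumour, with 221 and 390.4 CPM. Timp3 (chromosome 10, 86300412 to 86349505) had 63916 normal and 3926 tumour reads, or 2650 and 155 CPM, and was 17.1-fold lower (interval 16.5 to 17.6). Its reads made up 75.1% of the reads of all 85 genes in the normal library (exact Clopper-Pearson interval 74.8 to 75.4) and 15.2% in the tumour (14.8 to 15.7). Its log2 ratio stayed between -4.10 and -3.54 over the scalings tried. In GENCODE M21, 21.3% of its exon bases overlap exons of Syn3 on the other strand, which had 470 and 46 reads. In tissue samples fewer cells of a type and less RNA per cell cannot be told apart, here and for all values below.

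The other inhibitors did not follow Timp3. Timp1 (chromosome X, 20870166 to 20874737), an inhibitor that is also a growth-promoting factor, had 8 and 571 reads, or 0.332 and 22.6 CPM, and was 68.1-fold higher (34.3 to 158). Timp4, the inhibitor with the narrowest tissue range, had 4 and 53 reads, or 0.166 and 2.10 CPM, and was 12.6-fold higher (4.66 to 48.1). Timp2, which also takes part in the activation of pro-MMP2 by MMP14, had 799 and 783 reads, or 33.1 and 31.0 CPM, 1.07-fold less in the tumour (0.968 to 1.18), and its log2 ratio turned from -0.10 to 0.46 with plain CPM. Reck had 199 and 255 reads, or 8.25 and 10.1 CPM, a ratio of 1.22 (1.01 to 1.48). Of these 5 inhibitors 2 were thus higher, 1 lower and 2 neither, against a background in which 31.2% of 16326 measured genes were higher and 28% lower, 59.2% in all. With plain CPM that background was 42.1% higher and 20.2% lower. The 2 higher inhibitors, Timp1 and Timp4, had under 20 normal reads and passed the minimum through the tumour library, which favours a call.

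**Figure D1:**
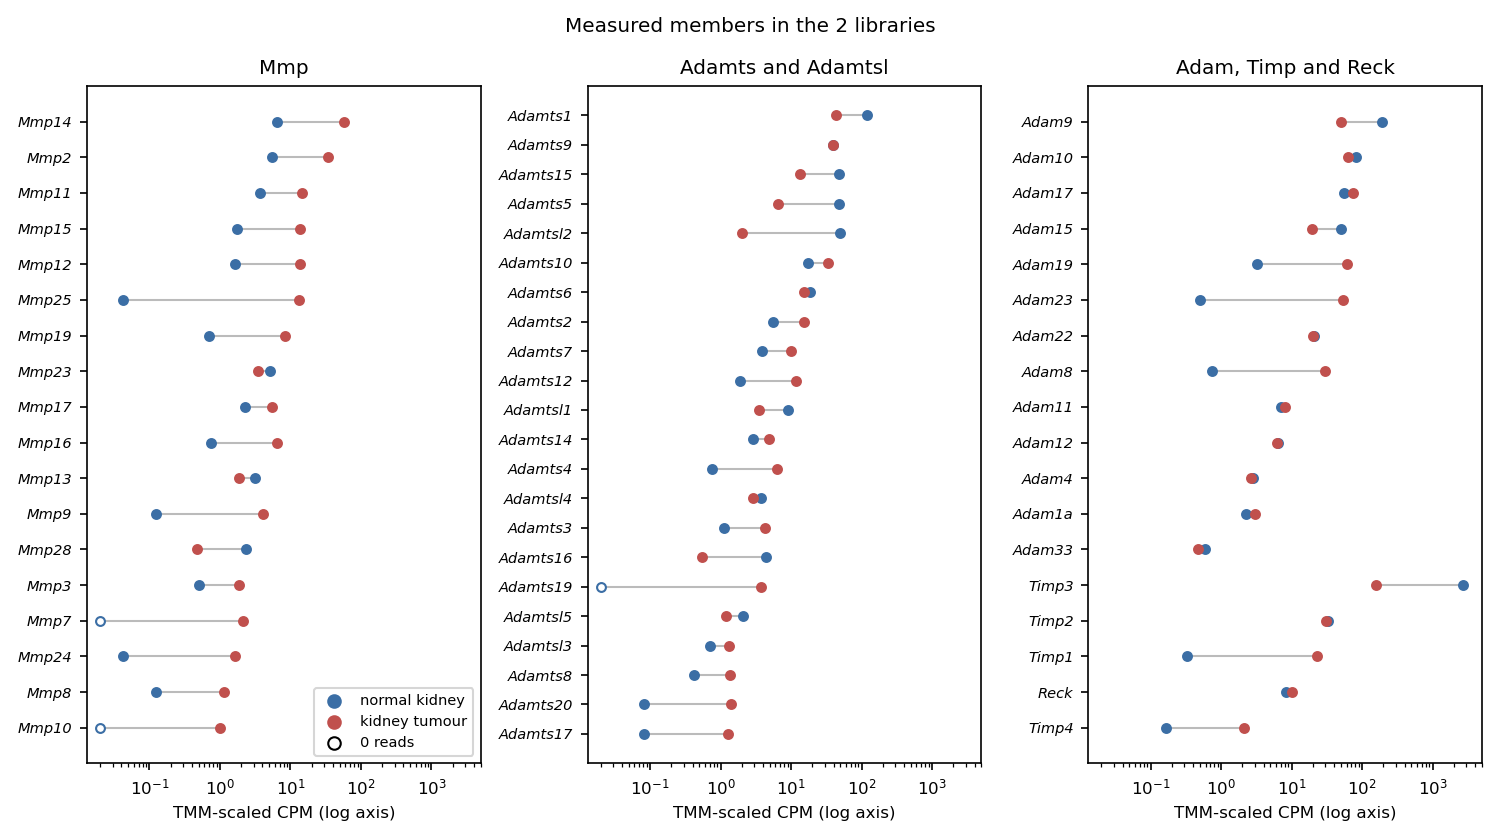
Level of each measured gene in the normal kidney (blue) and the kidney tumour (red), as TMM-scaled CPM on a log axis, 1 library per colour; open points at the left edge stand for 0 reads. Timp3 lies far to the right of all others in the normal library at 2650 CPM, and 15 of 18 Mmp genes have the tumour point to the right.

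Levels per transcript length, as the authors' RPKM (reads scaled by transcript length and library total), put inhibitors and Mmp genes on a common scale within each library. The 4 Timp genes summed to 344 RPKM in the normal and 52.5 RPKM in the tumour library, and the 23 Mmp genes to 8.39 and 50.8 RPKM. The Timp sum was therefore 41-fold the Mmp sum in the normal kidney and 1.03-fold in the tumour. Without Timp3 the inhibitor sum was 5.76 and 27.2 RPKM, and the ratio 0.687 and 0.535. Timp3 took 98.3% of the normal Timp sum and 48.2% of the tumour sum, where Timp1 took 37.2% and Timp2 12.4%. These ratios lie within a library and do not change with the scaling between libraries.

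**Figure D2:**
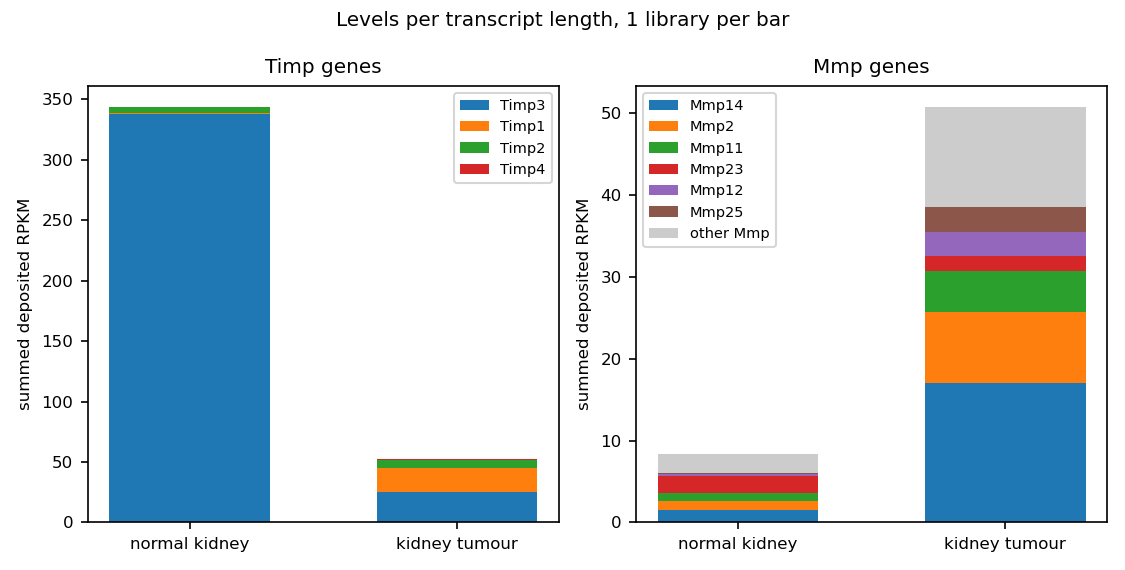
Summed deposited RPKM of the Timp genes (left) and Mmp genes (right) in each library, split by gene; the axes differ between the panels. The Timp sum is 344 RPKM in the normal and 52.5 RPKM in the tumour bar, and the Mmp sum 8.39 and 50.8 RPKM, with Mmp14 the largest tumour part.

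Among 18 measured Mmp genes 15 were higher in the tumour, 1 lower and 2 neither, with a median log2 ratio of 3.02, where all measured genes had a median of 0.08. Of the 18, 9 had at least 20 reads in the normal library, and 6 of those were higher; the others passed the minimum through the tumour library, which favours a call. Over all genes with at least 20 normal reads, 22.1% were higher. The family levels in the normal kidney were low, with no Mmp gene above 6.55 CPM.

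Membrane-type Mmp enzymes, which act at the cell surface and include activators of other Mmp precursors, were higher for all 6 members. Over all measured genes 31.2% were higher. Mmp16, Mmp24 and Mmp25 had under 20 normal reads and passed the minimum through the tumour library, which favours a call. Mmp14 (chromosome 14, 54431604 to 54441258), the main activator of pro-MMP2 and a collagenase, had 158 and 1462 reads, or 6.55 and 57.8 CPM, and was 8.83-fold higher (7.49 to 10.5). It was the Mmp gene with the highest level per length in the tumour, 17 RPKM against 1.51 RPKM in the normal library. Mmp15 was 7.88-fold higher (5.71 to 11.1), with 1.74 and 13.7 CPM. For Mmp16, at 0.746 and 6.41 CPM, the fold was 8.59 (5.26 to 14.9). The members anchored by glycolipid, Mmp17 and Mmp25, spanned the smallest and the largest fold of the 6. Mmp17 was 2.38-fold higher (1.73 to 3.31), at 2.28 and 5.42 CPM. Mmp25, known from leukocytes, had 1 and 339 reads and was 323-fold higher (57.7 to 12811). Mmp24, known from neurons, had 1 and 42 reads. A gene model on the other strand, which shares 13.6% of the Mmp24 exon bases in GENCODE M21, had 695 and 156 reads.

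Gelatinases, which cut denatured collagen and basement membrane collagen IV, were both higher, where 31.2% of all measured genes were higher. Mmp2 (chromosome 8, 92827328 to 92853420) had 130 and 871 reads, or 5.39 and 34.5 CPM, and was 6.39-fold higher (5.31 to 7.75). Mmp9 (chromosome 2, 164948219 to 164955849) had 3 and 103 reads, or 0.124 and 4.07 CPM, and was 32.8-fold higher (10.9 to 161). Mmp9, and Mmp19 below, had under 20 normal reads and passed the minimum through the tumour library, which favours a call. In the tumour Mmp2 stood at 8.67 RPKM and Mmp9 at 0.982 RPKM, so that Mmp2 was the more abundant gelatinase there. Among stromelysins, Mmp11, named for its expression in the stroma around tumours, was 4.01-fold higher (3.17 to 5.11) with 89 and 374 reads. Mmp19 was 11.8-fold higher (7.22 to 20.7), from 0.705 to 8.35 CPM. Its exons share 28.3% of their bases with models on the other strand, of which Tmem198b had 137 and 195 reads.

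The block on chromosome 9 was not uniform. Mmp12, the elastase of macrophages, had 40 and 346 reads, or 1.66 and 13.7 CPM, and was 8.25-fold higher (5.94 to 11.8). Mmp3, a stromelysin, was 3.74-fold higher (1.95 to 7.74) with 12 and 47 reads. For Mmp7, the matrilysin of epithelial cells, the reads were 0 and 54. With the 0 set to a floor of 3 reads Mmp7 was 17.2-fold higher (lower limit of the counting interval 13.5). Mmp10 had 0 and 25 reads and Mmp8, the collagenase of neutrophils, 3 and 29 reads, and both were higher. Mmp13, a collagenase of cartilage and bone, had 76 and 47 reads, or 3.15 and 1.86 CPM, 1.70-fold less in the tumour (1.16 to 2.49) and short of 2-fold. Mmp1a and Mmp1b, the mouse interstitial collagenases, had 0 reads in both libraries, and Mmp27 and Mmp20 had 0 reads in the normal and 11 and 2 in the tumour. Of the 10 genes 5 were thus higher, 1 was neither and 4 had too few reads, where 31.2% of all measured genes were higher. Among the 5 higher genes only Mmp12 had at least 20 normal reads. The others passed the minimum through the tumour library, which favours a call. Mmp3 and Mmp10 share 8.39% and 8.37% of their 50-base stretches, mostly with each other, so that some of their reads may be split.

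**Figure D3:**
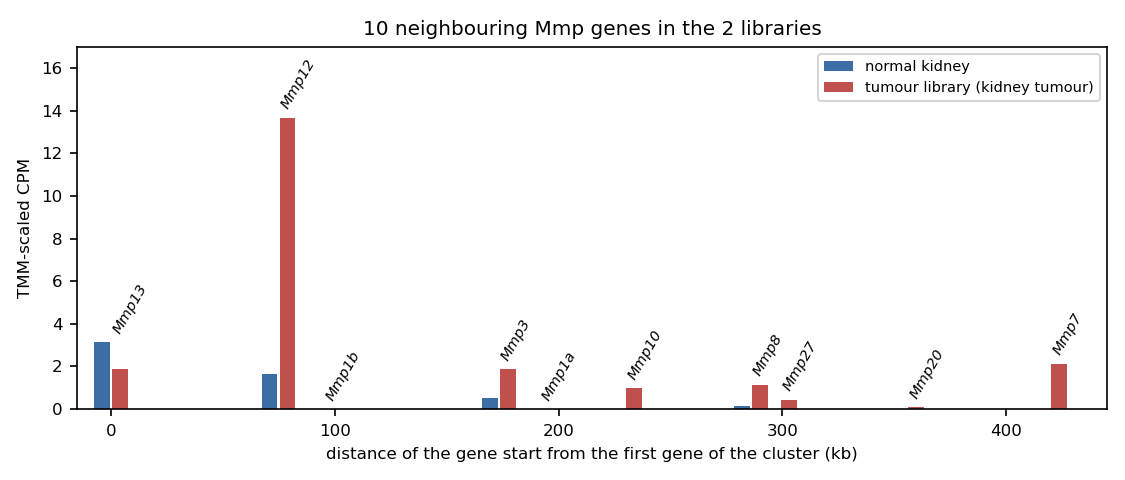
TMM-scaled CPM of the 10 neighbouring Mmp genes of chromosome 9 in each library, placed by the distance of their start from that of Mmp13. Mmp12 stands out in the tumour at 13.7 CPM, Mmp13 is the gene with more in the normal library, and Mmp1a and Mmp1b have no bar.

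Outside these groups Mmp28, an epithelial member, was the 1 Mmp gene called lower, at 2.36 and 0.475 CPM from 57 and 12 reads, 4.98-fold (2.64 to 10.2). Mmp23 led the Mmp genes of the normal kidney per length, at 2.15 RPKM against 1.86 RPKM in the tumour, with 124 and 88 reads and a fold of 1.48 (1.11 to 1.96) that was not called. Mmp21 had 0 and 5 reads.

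Markers of other cell types differed between the libraries and not all in 1 direction. Among all measured genes 31.2% were higher and 28% lower. Of 8 macrophage markers 7 were higher and 1, Csf1r, was neither at 1.89-fold less in the tumour, and their summed level was 122 CPM in normal kidney and 403 CPM in the tumour. Of 7 neutrophil markers 3 were measured, all higher, and the 7 summed to 1.49 and 8.43 CPM, with Elane at 0 reads in both libraries, Mpo at 0 and 2, Camp at 0 and 4 and Ngp at 0 and 18. The 3 measured had under 20 normal reads and passed the minimum through the tumour library, which favours a call. Fibroblast and mesangial markers summed to 326 and 979.8 CPM, where 4 of 7 were higher, 3 of them collagens, and Pdgfra, Pdgfrb and Dcn were neither, each with less in the tumour. Without the collagens the sums were 194 and 138 CPM. Lum, the other higher gene, had 15 normal reads and also passed the minimum through the tumour library. Of 5 endothelial markers 3 were lower and none higher, with sums of 418 and 111 CPM. The part of these cells in the values of the Mmp genes was not tested.

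**Figure D4:**
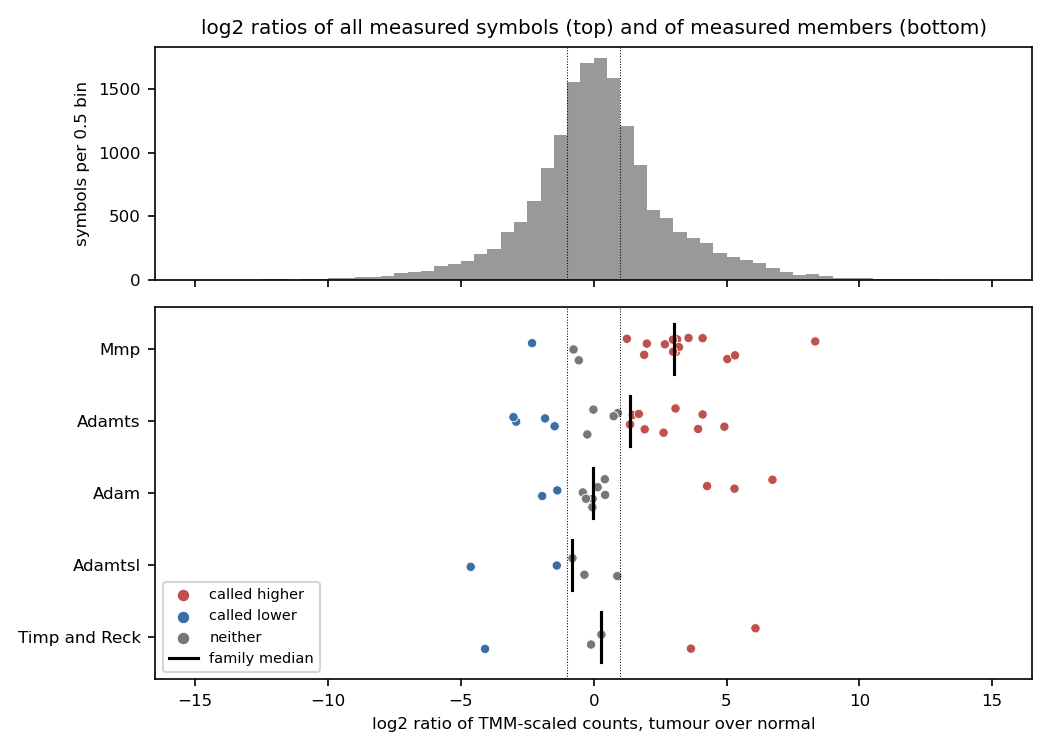
Distribution of log2 ratios (tumour over normal) of all 16326 measured genes in bins of 0.5 (top), and each measured family member (bottom) coloured by its call, with a bar at the family median; dotted lines mark 2-fold. The Mmp median lies at 3.02 and the Adam median at -0.04, close to the 0.08 of all genes.

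Adamts genes were called in both directions. Higher calls fell to 9 of 17 measured members and lower calls to 4, against 31.2% and 28% of all measured genes, and the median log2 ratio was 1.37. Of the 9 higher genes 5 passed the minimum only through the tumour library, and among the 12 members with at least 20 normal reads 4 were higher and 4 lower. Of the 7 members that cut aggrecan and versican, the proteoglycans of cartilage and soft matrix, 3 were lower, 3 higher and 1 neither. Their median log2 ratio was -0.01. Adamts5 had 1173 and 163 reads, or 48.6 and 6.45 CPM, and was 7.54-fold lower (6.40 to 8.94). Adamts1, which sits beside it on chromosome 16, had 2915 and 1105 reads, or 121 and 43.7 CPM, and was 2.77-fold lower (2.58 to 2.97), although with plain CPM its log2 ratio of -0.91 fell short of 2-fold. Adamts15 was 3.56-fold lower (3.15 to 4.04), at 47.4 and 13.3 CPM. Adamts9 showed almost no difference, with 39.4 and 39.1 CPM, 1.01-fold less in the tumour (0.921 to 1.10), and its log2 ratio turned from -0.01 to 0.55 with plain CPM. Models on the other strand overlap 12% of its exon bases.

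The other 3 members of the group were higher. Each had under 20 normal reads and passed the minimum through the tumour library, which favours a call. Adamts4, an aggrecanase, had 18 and 159 reads and was 8.43-fold higher (5.16 to 14.6). Adamts20 had 2 and 36 reads, and Adamts8, whose start lies beside that of Adamts15 on chromosome 9, had 10 and 34 reads. The neighbours Adamts15 and Adamts8 thus differed in direction, while Adamts1 and Adamts5 shared it. Over the 7 aggrecanase-type genes the summed level was 258 CPM in normal kidney and 112 CPM in the tumour.

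Procollagen N-proteinases, which trim the amino end of fibrillar procollagens, were higher for 2 of 3 members, against 31.2% of all measured genes. Adamts2, the main enzyme for type I procollagen, was 2.77-fold higher (2.27 to 3.40), at 5.56 and 15.4 CPM. Adamts3 was 3.78-fold higher (2.46 to 6.00), with 27 and 107 reads. Adamts14 had 70 and 123 reads and a ratio of 1.68 (1.24 to 2.28), which was not called under TMM and was called with plain CPM at a log2 ratio of 1.30. Both enzymes that cut cartilage oligomeric matrix protein were higher, Adamts7 2.59-fold (2.03 to 3.33) at 3.81 and 9.89 CPM and Adamts12 6.21-fold (4.53 to 8.70) at 1.87 and 11.6 CPM.

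Members with less known substrates spread in both directions. Adamts16, a gene of the developing kidney and gonad, was 8.09-fold lower (4.62 to 15.3), with 108 and 14 reads. Reads of Adamts19 were 0 and 95, at least 30.2-fold higher in the tumour (lower limit 24.1), and Adamts17 had 2 and 32 reads. Adamts10 and Adamts6, linked to fibrillin microfibrils, were neither. The first had a ratio of 1.88 (1.67 to 2.12), which became a higher call with plain CPM at a log2 ratio of 1.47, and the second 1.18-fold less in the tumour (1.03 to 1.35). Adamts13, which cuts von Willebrand factor and is made mainly in liver stellate cells, had 0 and 4 reads.

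ADAMTS-like proteins lack the protease domain and bind fibrillin and other matrix proteins. Adamtsl2 (chromosome 2, 27079381 to 27108613), a regulator of microfibrils and TGF-beta, had 1207 and 51 reads, or 50 and 2.02 CPM, and was 24.8-fold lower (18.7 to 33.5). Adamtsl1 was 2.62-fold lower (2.04 to 3.39), at 9.12 and 3.48 CPM, but not with plain CPM, at a log2 ratio of -0.83. Adamtsl3, Adamtsl4 and Adamtsl5 were neither, with 17 and 33, 89 and 73, and 50 and 30 reads. No ADAMTS-like gene was higher under TMM, and Adamtsl3 became so with plain CPM at a log2 ratio of 1.45.

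Among ADAM genes the 2 general sheddases differed little. Adam10, the alpha-secretase that starts Notch cleavage, had 1988 and 1564 reads, or 82.4 and 61.9 CPM, 1.33-fold less in the tumour (1.25 to 1.42), and its log2 ratio turned from -0.41 to 0.14 with plain CPM. Adam17, the enzyme that releases TNF and ligands of the EGF receptor, had 1318 and 1867 reads, or 54.7 and 73.9 CPM, a ratio of 1.35 (1.26 to 1.45). Neither reached 2-fold. Exons of Adam17 share 4.35% of their bases with Iah1 on the other strand, a gene that had 4869 and 421 reads, and the sources used here do not say whether counting kept the strands apart.

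Of the other 6 measured members with a protease site 2 were lower and 2 higher, against 28% and 31.2% of all measured genes. Adam9 (chromosome 8, 24949611 to 25016922), the Adam gene with most reads in the normal kidney, had 4662 and 1275 reads, or 193 and 50.4 CPM, and was 3.83-fold lower (3.60 to 4.08). It took 48.2% of the normal Adam sum in RPKM and 15.2% of the tumour sum, where Adam17 led with 20.2%. Adam15 was 2.59-fold lower (2.33 to 2.88), at 49.3 and 19.1 CPM, but not with plain CPM, at a log2 ratio of -0.81. A model on the other strand overlaps 20.6% of its exon bases. Adam8, a protease of myeloid cells, had 18 and 743 reads, or 0.746 and 29.4 CPM, and was 39.4-fold higher (24.7 to 66.8). With under 20 normal reads it passed the minimum through the tumour library, which favours a call. Adam19, which takes part in heart and neural crest development, had 77 and 1561 reads, or 3.19 and 61.7 CPM, and was 19.3-fold higher (15.4 to 24.6). Adam12 had 153 and 156 reads and Adam33 14 and 12 reads, and both were neither.

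Adam23, Adam22 and Adam11 lack an active protease site and act as adhesion proteins and as receptors for LGI ligands at synapses. Adam23 (chromosome 1, 63445904 to 63596515) had 12 and 1337 reads, or 0.498 and 52.9 CPM, and was 106-fold higher (60.6 to 206). Adam22, with 20.6 and 19.9 CPM, and Adam11, with 7.13 and 7.91 CPM, were neither. Beside Adam23, 7 of 7 neural markers were higher, with sums of 14 and 138 CPM, and Elavl4, Tubb3 and Snap25 at 0 reads in the normal library. Dcx had 1 normal read and Stmn2 15. Adam23 and these 5 markers passed the minimum through the tumour library, which favours a call. Among all measured genes 31.2% were higher. The part of neural cells in the Adam23 value was not tested.

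Adam genes of testis and epididymis, which serve sperm maturation and egg binding, gave almost no reads. Of 19 such genes 11 had 0 reads in both libraries, and 6 more had reads below the minimum, at most 11 in a library. A count of 0 allows up to 0.124 CPM in normal kidney and up to 0.119 CPM in the tumour. The measured ones were Adam4, with 67 and 68 reads, and Adam1a, with 55 and 77 reads, and neither was called. Adam1a shares 63.7% of its exon bases with same-strand neighbours in GENCODE M21, and Adam4 shares 17.4% of its 50-base stretches with other genes, so that both counts are uncertain. The early germ cell markers Ddx4, Dazl and Sycp3 were higher in the tumour library, with 171, 1045 and 286 reads there against 6, 1 and 4. They passed the minimum through the tumour library, which favours a call. The sperm markers Prm1, Prm2, Tnp2 and Acrv1 were at 0 reads in both. In all, 14 Adam genes and 2 Mmp genes had no read in either library.

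Over the 85 genes, 58 were measured, 11 had too few reads and 16 had none. Of the measured genes 29 were higher, 10 lower and 19 neither. The median log2 ratio was 1.08. Of the 29 higher genes 18 had under 20 reads in the normal library, so that they entered through the tumour library, and this count is not support for a shift of the family. Among the 38 genes with at least 20 normal reads 11 were higher and 10 lower, while of all genes passing that minimum 22.1% were higher and 32.6% lower. Just inside the 2-fold limit lay Mmp17 at 2.38-fold and Adam15 and Adamts7 at 2.59-fold, and just outside it Adamts10 at 1.88-fold, Adamtsl3 at 1.85-fold and Adamtsl5 at 1.75-fold.

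Proteins that activate, assist or limit these enzymes, and their substrates, were read from 7 lists with 67 genes, of which 61 were measured, 18 were higher, 24 lower and 19 neither. Over the lists 29.5% were thus higher and 39.3% lower, against 31.2% and 28% of all measured genes. In the plasminogen system and among furin-type convertases, which open precursors of Mmp and ADAM enzymes, 5 of 10 were lower and 2 higher. Urokinase, Plau, was 9.18-fold lower (8.72 to 9.67) and the plasmin inhibitor Serpinf2 413-fold lower (267 to 676). Furin, Pcsk5 and Pcsk7 were lower too, and the urokinase receptor Plaur was 3.02-fold higher (2.22 to 4.15). Among astacin proteases and procollagen processing genes 3 of 6 were lower and 2 higher. The meprins Mep1a and Mep1b, proteases of the proximal tubule brush border, were 190.3-fold (171 to 212) and 48.1-fold lower (40.6 to 57.4), and Pcolce was lower, while the procollagen C-proteinase Bmp1 and Pcolce2 were higher.

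Cathepsins and cystatins were lower for 4 of 8 genes, among them Ctsd, 2.32-fold (2.26 to 2.38), and Ctsl, 2.44-fold (2.37 to 2.5), and Ctss, a cathepsin of macrophages, was the higher one at 3.14-fold (2.83 to 3.49). Of the other inhibitors 5 of 9 were higher and 2 lower, with Thbs1 2.56-fold higher (2.44 to 2.68) and Pzp 126-fold lower (89.7 to 184). Partners of ADAM proteases and beta-secretases were lower for 5 of 9 and higher for none, with Rhbdf1, a carrier of ADAM17, 2.59-fold lower (2.29 to 2.94) and Bace1 2.32-fold lower (2.07 to 2.60). Of 11 measured substrates that ADAM proteases shed 5 were lower, with App 9.09-fold (8.75 to 9.45) and Prnp 14.2-fold lower (13.0 to 15.4), and 1, the growth factor Ereg with 0 and 29 reads, was higher.

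Substrates of ADAMTS proteases were higher for 7 of 8 measured genes, against 31.2% of all measured genes. Of the 7, 3 had 0 normal reads and passed the minimum through the tumour library, which favours a call. Versican, Vcan, had 32 and 4680 reads and was 139.5-fold higher (98.7 to 204), and Col3a1 was 7.33-fold higher (6.95 to 7.73) at 63.6 and 466 CPM. The proteoglycan aggrecan, Acan, had 0 and 223 reads, and Comp, with 15 and 11 reads, was neither. Beside them, 4 of 4 measured cartilage and bone markers were higher, with sums of 0 and 63.6 CPM, and the bone markers Sp7, Bglap and Ibsp were at 0 reads in both libraries. As all 4 measured markers had 0 normal reads, only a higher call was possible for them. The lists share Acan, Col1a1, Col2a1 and Col3a1 with the marker lists, so that these counts are not separate from each other.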

How the data were processed

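Per the labels' protocols, ribosomal RNA was removed from total RNA and a stranded library kit was used. Tools listed in the submitters' processing notes are STAR 2.5.0c, HOMER and bcl2fastq, with no role, and the build is mm10. The authors deposited exon read counts, as whole numbers, for 32958 gene models, and RPKM values, which, per the file headers, rest on totals of 40408775 and 33169818 reads. How reads mapping to several places were treated, and the strand setting in counting, are not given in the sources used here. Exon reads were 72.4% and 62.8% of these totals.

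The model with most reads stood for a symbol. TMM factors (edgeR 4.0.16, R 4.3.3) over the 16326 measured symbols were 0.824 (normal) and 1.21 (tumour). DESeq2 1.42.0 size factors, plain CPM, header totals, RPKM plus a pseudocount, other filters and other fold limits were the alternatives. A count of 0 was replaced by 3 reads to give a fold, and the counting interval can reach below that fold. Intervals treat each read as its own molecule. Ratios, intervals and calls were tested on simulated data with counting error only, in which few genes differed between the libraries. Such data cannot test the scaling or the calls where many genes differ, as here, or differences between animals. Other steps used Python 3.11.15, numpy 2.4.6, pandas 2.3.3, scipy 1.17.1 and matplotlib 3.10.9. Overlaps, 50-base stretches (longest transcript of a gene) and promoters came from GENCODE M21 and RefSeq, on the assembly of mm10.

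Genes and lists were chosen with earlier results of these data known. By the naming rule, values are given for genes with a mean of at least 1 CPM that were called, for all Timp genes and Reck, for the 3 uncalled genes with most reads, and for the 2 called genes with most reads in each list of other genes. Genes that complete a count of 5 or fewer, the ADAM roles and the motifs were chosen after values were seen. Proteins were not used here. The values of 1 gene in the lists of other genes are not reported here.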

Additional observations from a re-analysis of the deposited data

How the results depend on the processing

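Over all measured genes the median log2 ratio was higher by 0.56 with plain CPM, by 0.35 with header totals and by 0.32 with RPKM plus 0.1, and 67.6%, 62.5% and 62.6% of calls were higher, against 52.8% under TMM. Against 29 genes higher, 10 lower and a median of 1.08, plain CPM gave 32, 7 and 1.64, header totals a median of 1.43, and RPKM plus 0.1 and plus 0.01 medians of 1.21 and 1.42. With no filter the median was 0.89. With at least 100 reads 19 of 44 genes were higher and the median was 0.43. That filter removed 10 genes that had been higher and 1 that had been lower. Over all genes with at least 100 reads 28% were higher and 29% lower, with a median of -0.02. At 4-fold 5 genes were lower, by the stricter limit. DESeq2 size factors, and summing the models of a symbol, changed no call among the measured genes. Plain CPM ended the calls of Adam15, Adamtsl1 and Adamts1, and RPKM plus 0.1 that of Adamtsl1 (log2 ratio -0.86). No called gene changed sign under any scaling tried. No paired analysis was possible because each group had 1 library, and for the same reason no replicate could be left out. Depth limits the genes with few reads most: the interval of Mmp25, with 1 read in the normal library, ran from 57.7-fold to 12811-fold.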
